A study of Mus musculus with 6 samples.

Results

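The genes described here are 39 genes of the complement system and of blood coagulation and fibrinolysis, out of 22322 genes in the deposited expression table. They were chosen by symbol, 23 from complement and 16 from coagulation and fibrinolysis, and all 39 symbols were found once. The study sequenced mRNA of epididymal white adipose tissue from mice on a high fat diet for 17 weeks, to compare wild type with CD44 knockout animals. CD44 binds hyaluronan at the cell surface. There were 3 libraries of wild type fat (titled HFD in the labels) and 3 of CD44 KO fat (titled CD44), and both genotypes received the high fat diet. The strain, the age, the way the knockout was made and the number of mice per library are not stated in the labels, so p-values measure the spread between these libraries. Because the tissue was sequenced in bulk, fewer cells of a type and less RNA per cell cannot be told apart in any result below.

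Complement is a set of plasma proteases and receptors that tags particles for removal. C1q starts the classical pathway, mannose-binding lectin and its proteases start the lectin pathway, and factor B, factor D and properdin form the alternative pathway, all meeting at C3. Coagulation is a second protease cascade that ends in thrombin and fibrin, held in check by thrombomodulin, protein C, protein S and tissue factor pathway inhibitor, while plasminogen and its activators dissolve fibrin. The liver makes most of these plasma proteins, but macrophages make C1q, endothelial cells make von Willebrand factor and thrombomodulin, and adipocytes secrete factor D under the name adipsin.

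The libraries held between 15543317 and 18765009 expected counts. For Cd44, wild type fat gave 3091, 10580 and 6000 of them (replicates 1 to 3, the order used throughout) and knockout fat 28, 50 and 34. All 12 mature adipocyte markers had counts in each of the 6 libraries. CD44 KO replicate 2 held epididymis transcripts, with summed markers of 11333 CPM against 0.97 to 14.2 CPM in the other 5 libraries (CPM, library-scaled counts after TMM). Liver transcripts were also unequal, with 27, 7 and 5 counts of the albumin gene Alb in wild type fat and 90, 1100 and 6007 in knockout fat. Macrophage markers summed to 5737, 9942 and 7933 CPM in wild type and to 5041, 424 and 1435 CPM in knockout fat, with 14 of 14 detected in each library. CD44 KO replicate 1 was thus close to wild type replicate 1 in macrophage transcripts and far from the other CD44 KO libraries.

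Between the genotypes, 4 genes of the 37 tested passed: Cfd, C2 and the thrombomodulin gene Thbd rose in CD44 KO and the thrombin receptor gene F2r fell. The test was edgeR's quasi-likelihood test with Benjamini-Hochberg adjustment over 13829 genes, and "edgeR FDR" below means its adjusted p, with a call under 0.05, and log2FC is the fitted log2 fold change of CD44 KO over wild type. In complement 2 of 22 tested genes were called (9.09%) and in coagulation and fibrinolysis 2 of 15 (13.3%), where 2.62% of all genes tested were called. Wild type and knockout libraries were fully separate for 13 complement genes (59.1%) and 9 coagulation genes (60%), against 37.8% of all genes tested. Complement had 4 of these higher and 9 lower and coagulation 4 higher and 5 lower in knockout fat, where 19.7% of all genes tested were separate and higher and 18.1% separate and lower. The median log2FC was -0.47 in complement and -0.56 in coagulation and fibrinolysis, against 0.03 over all genes tested. Masp2 and Plg had too few counts to be tested. DESeq2 called 4 complement genes higher (Cfd, C2, C7 and Cd46) and 8 lower (C1qa, C1qb, C1qc, C3, Cfb, C5ar1, Serping1 and Cd55). In coagulation and fibrinolysis it called 5 higher (Thbd, Tfpi, Proc, F5 and Plg) and 4 lower (F2r, Pros1, Procr and Plaur). F5 and Plg were above wild type only in CD44 KO replicates 2 and 3, the libraries with the most liver transcripts. Of all its tested genes DESeq2 called 9.62% higher and 9.38% lower.

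Whether these 4 genes passed the threshold depended on which libraries were in the fit. Their directions did not, which the full separation of their groups all but fixed in advance. With each library left out, the log2FC ran from 4.31 to 5.82 for Cfd and from 1.73 to 2.19 for C2. It ran from 1.68 to 2.21 for Thbd and from -1.34 to -1.07 for F2r. All 4 genes were called without CD44 KO replicate 1 and none of the 4 when wild type replicate 2, or replicate 3 of either genotype, was left out. Calls over all genes shrank in the same fits, to 2 higher and 7 lower, to 0 and 0, and to 5 and 2, from 240 higher and 122 lower. Without CD44 KO replicate 1, edgeR called 3 complement genes higher and 8 lower and 4 coagulation genes higher (Plg, tested in that fit, among them) and 4 lower, where 7.13% of all genes tested in that fit were called higher and 9.65% lower. The direction of 35 of the 37 was the same in all 6 fits that each left out 1 library. For the 22 genes with separate groups this was all but fixed in advance.

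**Figure D1:**
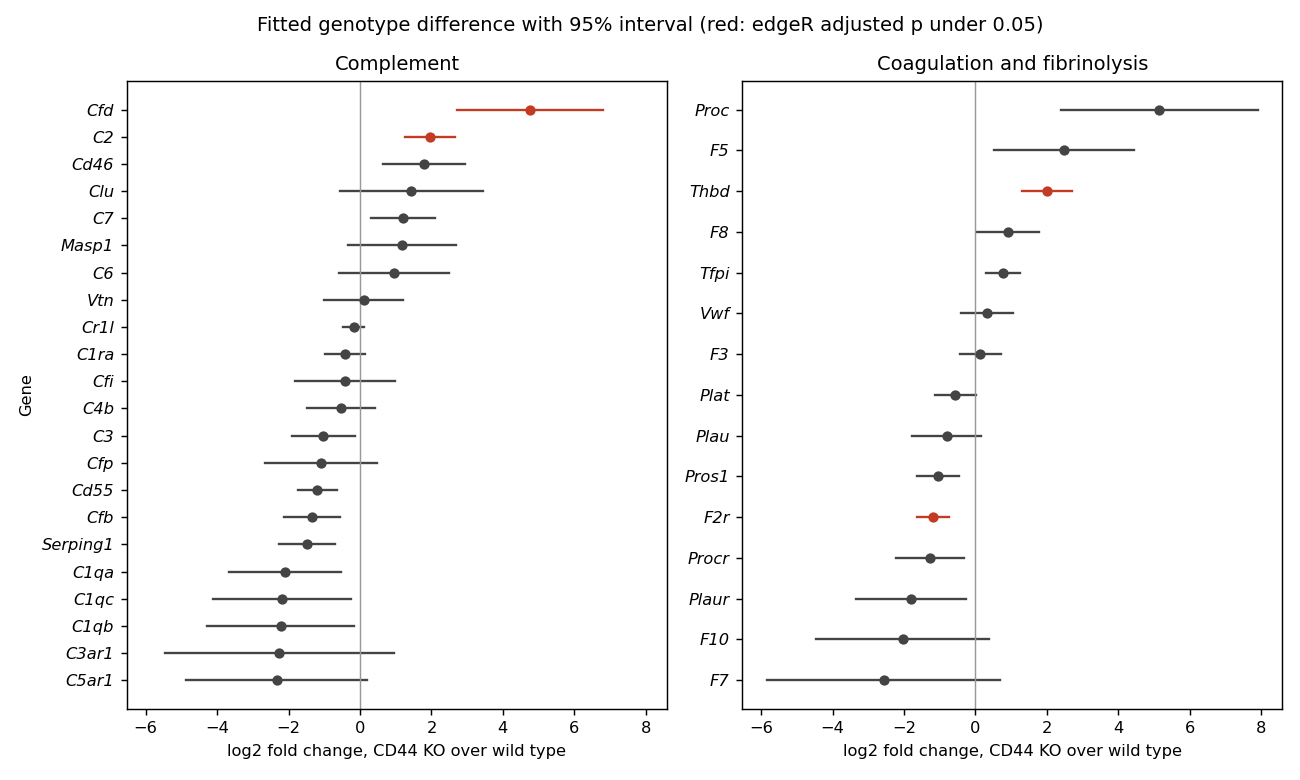
Fitted log2FC of CD44 KO over wild type (x axis) for each tested complement gene (left) and coagulation or fibrinolysis gene (right). Points are estimates, lines are 95% intervals and red marks the 4 genes with an edgeR FDR under 0.05. Cfd and Proc lie farthest to the right, and the receptor genes C5ar1 and C3ar1 and the factor gene F7 farthest to the left with wide intervals.

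C1q transcripts stood lower in each knockout library than in any wild type library, without passing the edgeR test. C1qa, C1qb and C1qc encode the 3 chains of C1q, the antibody-binding starter of the pathway, and lie side by side on the minus strand of chromosome 4 in GRCm38. C1qb spans 136880129 to 136886187, C1qc 136889804 to 136893065 and C1qa 136895917 to 136898803, with 3616 bases between C1qb and C1qc and 2851 between C1qc and C1qa. Together the 3 genes stood at 1114, 1584 and 1949 CPM in wild type fat and at 705, 73.5 and 251 CPM in knockout fat. Each CD44 KO library was below each wild type library, and CD44 KO replicate 1 was nearest to the wild type range. C1qb stood at 469.6, 678 and 834 CPM in wild type fat and at 312, 26 and 89.1 CPM in knockout fat. Its log2FC was -2.22 (SE 0.85), a 4.64-fold difference (95% interval 1.12 to 19.3), and it was not called (edgeR FDR 0.142). C1qa and C1qc had log2FC values of -2.10 (SE 0.65) and -2.18 (SE 0.80) with edgeR FDR of 0.102 and 0.133. DESeq2 called all 3 genes lower, with adjusted p of 0.0053, 0.0201 and 0.0166 for C1qa, C1qb and C1qc. Without CD44 KO replicate 1 edgeR called all 3, and C1qb then stood at -3.52.

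RefSeq promoters were matched for 25 of the 39 genes. The 250 bases before the transcript start (the RefSeq start, which can differ from the GENCODE start of the spans given here) are shown for C1qb, the C1q gene of highest level in wild type, and for the neighbours F7 and F10, coagulation factor genes described further on. All 3 were lowest in CD44 KO replicate 2. Each is written 5′ to 3′ on the gene's own strand (GRCm38.p6), and capitals mark the PU-box letters GAGGAA on either strand, a motif read by the macrophage transcription factor PU.1.
C1qb, chr4:136886201-136886450, minus strand: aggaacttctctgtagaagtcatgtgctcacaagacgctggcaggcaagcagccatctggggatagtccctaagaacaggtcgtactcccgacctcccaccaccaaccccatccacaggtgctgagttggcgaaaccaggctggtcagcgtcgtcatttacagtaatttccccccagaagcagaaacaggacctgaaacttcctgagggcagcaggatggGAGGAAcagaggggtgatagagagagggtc
F7, chr8:13025784-13026033, plus strand: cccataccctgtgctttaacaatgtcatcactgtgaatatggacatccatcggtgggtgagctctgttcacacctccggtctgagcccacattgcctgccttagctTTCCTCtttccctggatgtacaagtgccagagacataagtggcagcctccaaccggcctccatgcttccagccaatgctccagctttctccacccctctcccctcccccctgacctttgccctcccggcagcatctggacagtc
F10, chr8:13037058-13037307, plus strand: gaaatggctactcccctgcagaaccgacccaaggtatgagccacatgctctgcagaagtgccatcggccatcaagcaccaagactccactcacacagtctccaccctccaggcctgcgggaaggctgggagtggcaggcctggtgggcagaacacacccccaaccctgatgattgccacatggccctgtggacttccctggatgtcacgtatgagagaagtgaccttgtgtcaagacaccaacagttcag
The letters occurred once in C1qb and once in F7, starting 30 and 144 bases before the RefSeq start, and did not occur in the F10 window. Among 32851 promoter windows of that length 23.3% held them, and among 26 windows of the genes described here 5 did (19.2%). Searches on both strands for TTGCNNAA (the C/EBP motif), TTCNNNGAA (the GAS motif) and the DR1 motif matched none of the 3 windows shown. These letters were in 9.56%, 7.02% and 0.0335% of all windows. With at most 1 match per window, none overlapped another.

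Of the other tested genes of the classical and lectin pathways, C2 alone was called. C2, the protease that joins C4 in the classical C3 convertase, rose from 48.7, 26.5 and 37.9 CPM in wild type to 136, 115 and 188 CPM in knockout fat. The lowest CD44 KO library was above the highest wild type library. This was a 3.87-fold increase (95% interval 2.38 to 6.31), with a log2FC of 1.95 (SE 0.29, edgeR FDR 0.0363). Its adjusted p ran from 1.28e-07 (DESeq2) to 0.233 (without wild type replicate 3) over the alternatives, and its log2FC from 1.73 to 2.19 in the fits without 1 library. C4b, the other part of that convertase, stood at 1092, 632 and 838 CPM in wild type fat and at 757, 308 and 715 CPM in knockout fat, with overlapping groups (edgeR FDR 0.382). C1ra, a protease of the C1 complex, had a log2FC of -0.41 (edgeR FDR 0.254). Masp1, a lectin pathway protease, had 1.17 (edgeR FDR 0.239), and Masp2 had at most 15 counts in any library.

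The alternative pathway held the largest change among the tested genes that were called. Cfd (chromosome 10, plus strand, 79890853 to 79892655) encodes factor D, the protease that cleaves factor B, known in fat as adipsin. It rose from 740.0, 104 and 249 CPM in wild type to 8012.5, 6802 and 14872 CPM in knockout fat, and all CD44 KO libraries were above all wild type libraries. The increase was 27.1-fold (95% interval 6.59 to 112), with a log2FC of 4.76 (SE 0.85, edgeR FDR 0.0473). The wild type libraries spread widely, and without wild type replicate 1, the highest of them, the log2FC was 5.82. With CD44 KO replicate 1 as the only knockout library it was 4.45 (edgeR FDR 0.254).

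Cfb and C3, the proteins on which factor D's cascade acts, were lower in each CD44 KO library than in any wild type library. Neither was called by edgeR, and DESeq2 called both lower (adjusted p 0.00118 for Cfb and 0.0298 for C3). Cfb, which encodes factor B, stood at 638, 325 and 530 CPM in wild type fat and at 247, 145 and 196 CPM in knockout fat. Its log2FC was -1.34 (SE 0.32, edgeR FDR 0.0708). C3, the protein where the pathways meet, stood at 1586, 1144 and 1098 CPM in wild type fat and at 722, 343 and 812 CPM in knockout fat, with a log2FC of -1.03 (SE 0.37, edgeR FDR 0.125). The properdin gene Cfp, which stabilises the alternative convertase, stood at 75.9, 104 and 97.8 CPM in wild type fat and at 82.7, 11.4 and 36.2 CPM in knockout fat. Only CD44 KO replicates 2 and 3 were below wild type for Cfp. Fibroblast and progenitor markers, which mark cells that also make C3 and the C1 inhibitor, summed to 6021, 8373 and 7250 CPM in wild type fat and to 3401, 1156 and 2345 CPM in knockout fat. Of these 12 markers, 9 had separate groups and were lower and 1 was called lower, and their part in the values of C3, Cfb, Serping1, Procr and Pros1 was not tested.

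C2 and Cfb are near neighbours with opposite signs. Both lie on the minus strand of chromosome 17, Cfb from 34856374 to 34862518 and C2 from 34862604 to 34898265, with 85 bases between them. GENCODE M21 also lists Gm20547, which overlaps both genes on the same strand, and Zbtb12, which overlaps C2 on the other strand. Gm20547 had 0, 13 and 36 expected counts in wild type fat and 0 in each CD44 KO library, against 492 to 2897 for C2. How reads shared by these genes were divided is not given in the sources used here, and neither is strandedness, so reads of C2 and Zbtb12 cannot be told apart.

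**Figure D2:**
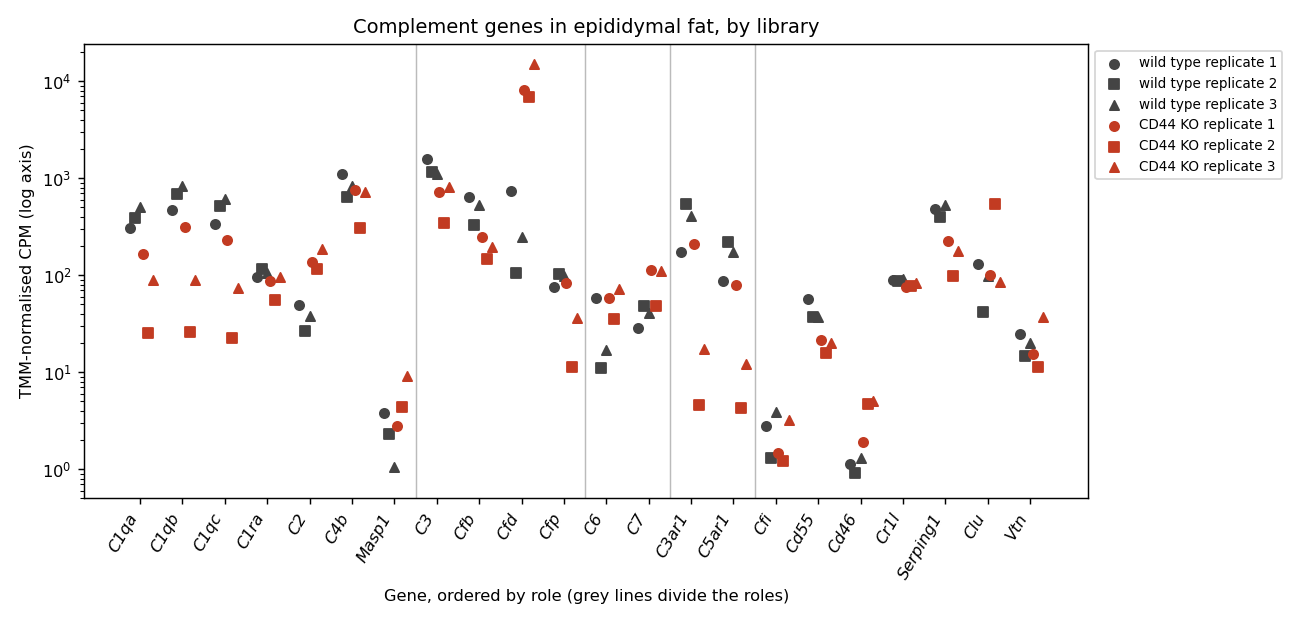
CPM (log y axis) of the 22 tested complement genes in each library, wild type in grey and CD44 KO in red, with 1 marker shape per replicate number. Grey lines divide the roles named in the text. Cfd and C2 are higher in all 3 CD44 KO libraries, and the C1q chains and the receptors C3ar1 and C5ar1 are lowest in CD44 KO replicate 2.

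The terminal pathway genes were on the high side in knockout fat. C7, which anchors the membrane attack complex, stood at 28.2, 47.8 and 41.1 CPM in wild type fat and at 113, 48.4 and 109.9 CPM in knockout fat. The groups did not overlap, but CD44 KO replicate 2 was barely above wild type replicate 2, and the log2FC of 1.21 (SE 0.37) was not called (edgeR FDR 0.101). C6, which binds next to C7 in that complex, stood at 57.5, 11.1 and 17.1 CPM in wild type fat and at 58.2, 35.5 and 71.9 CPM in knockout fat. Its log2FC of 0.95 (edgeR FDR 0.333) became 1.98 without wild type replicate 1.

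The anaphylatoxin receptor genes were low in 2 of the 3 CD44 KO libraries. C3ar1, the receptor for C3a, stood at 172, 535 and 408 CPM in wild type fat and at 212, 4.56 and 17.2 CPM in knockout fat. C5ar1, the receptor for C5a, stood at 88.0, 221 and 175 CPM in wild type fat and at 79.4, 4.26 and 12.1 CPM in knockout fat. CD44 KO replicate 1 was inside the wild type range for C3ar1 and just under it for C5ar1. Their log2FC values were -2.26 (SE 1.33) and -2.33 (SE 1.05) with edgeR FDR of 0.278 and 0.184, and without CD44 KO replicate 1 they were -5.10 and -4.30 and both called. C5ar2, named after its values were seen, is a second C5a receptor next to C5ar1 on chromosome 7 and had a log2FC of -2.50 (edgeR FDR 0.153). Summed macrophage markers were lowest in the same 2 libraries, and their part in these values was not tested.

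None of the 7 tested regulators was called by edgeR. DESeq2 called 2 lower, Serping1 (adjusted p 3.71e-04) and Cd55 (3.60e-04), and 1 higher, Cd46 (0.015). Over all its tested genes DESeq2 called 9.62% higher and 9.38% lower. Serping1 encodes the C1 inhibitor, which blocks the C1 and lectin pathway proteases and also kallikrein and factor XII. It stood at 475, 399 and 529 CPM in wild type fat and at 224, 96.9 and 178 CPM in knockout fat (log2FC -1.49, SE 0.33, edgeR FDR 0.0627). Cd55, which speeds the decay of the C3 convertases, stood at 56.4, 36.9 and 37.4 CPM in wild type fat and at 21.6, 15.8 and 19.8 CPM in knockout fat (log2FC -1.19, SE 0.23, edgeR FDR 0.0522). For both genes the groups did not overlap, and both were called without CD44 KO replicate 1 (edgeR FDR 0.0277 for Serping1 and 0.0318 for Cd55).

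Cr1l and Cd46, neighbours on chromosome 1 that encode membrane cofactors for the breakdown of C3b, differed in level and in sign. Cr1l, whose product (Crry) is the broadly expressed form in mice, stood at 88.4, 87.0 and 91.5 CPM in wild type fat and at 75.6, 77.3 and 82.4 CPM in knockout fat. The groups did not overlap, but the log2FC was -0.18 (95% interval of the fold difference 0.925 to 1.39, edgeR FDR 0.336). Cd46 had 19, 17 and 25 counts in wild type fat and 32, 79 and 77 in knockout fat, with a log2FC of 1.79 (edgeR FDR 0.0818). Cfi, the protease that cuts C3b and C4b, had a log2FC of -0.42 (edgeR FDR 0.637), and Vtn, which encodes the terminal pathway inhibitor vitronectin, had 0.10 (edgeR FDR 0.897), the latter turning to -0.56 without CD44 KO replicate 3.

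Clu, the gene of clusterin, another terminal pathway inhibitor that is also a major product of the epididymis, was high in 1 library. It stood at 130.1, 41.6 and 98.4 CPM in wild type fat and at 99.7, 547 and 85.3 CPM in knockout fat. CD44 KO replicates 1 and 3 were inside the wild type range. The log2FC was 1.44 (SE 0.83, edgeR FDR 0.269) and 0.04 without CD44 KO replicate 2, the library with epididymis transcripts.

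Of the other complement genes, 37 were in the table and 20 tested, and 0 rose and 2 fell, where 1.74% of all genes tested rose and 0.882% fell. Cd59a (chromosome 2, 104095801 to 104115354), which protects cells by blocking the membrane attack complex, was among those that fell, from 277, 118 and 215 CPM to 26.5, 27.6 and 33.3 CPM. The decrease was 6.98-fold (95% interval 3.98 to 12.2) at a log2FC of -2.80 (SE 0.34, edgeR FDR 0.0266). Its close paralog Cd59b, also named after its values were seen and 4613 bases away, showed a log2FC of -0.36 (edgeR FDR 0.715) at a mean of 1.58 CPM in wild type. Cd59a and Cd44 are 1.19 megabases apart, the strain of origin of that stretch is not given, and its part in the change was not tested. Of the 39 genes, Serping1, Tfpi, Thbd and Procr lie on the same chromosome, at 18, 18.3, 45.5 and 52.8 megabases from Cd44. The part of their position was not tested either. Cd59a was called without wild type replicate 1, without wild type replicate 2 and without CD44 KO replicate 1, and not when any other library was left out.

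None of the 4 tested genes of C3 fragment receptors in this list was called by edgeR. Itgam and Itgb2, which encode the chains of complement receptor 3, had log2FC values of -2.32 and -2.77 with edgeR FDR of 0.252 and 0.185. Itgb2 stood at 302, 1293 and 653 CPM in wild type fat and at 284, 10.2 and 34.4 CPM in knockout fat, and for Itgam CD44 KO replicate 1 was inside the wild type range. Itgax and Vsig4, named after their values were seen, had log2FC values of -4.11 and -2.10 (edgeR FDR 0.103 and 0.257, DESeq2 adjusted p 0.0123 and 0.171), and Cr2 was not tested. Cd93, first described as a C1q receptor and carried by endothelial and myeloid cells, had a log2FC of -0.86 (edgeR FDR 0.102, DESeq2 adjusted p 0.0255). Hc, which encodes C5, had 4, 46 and 16 counts in wild type fat and 0, 10 and 82 in knockout fat.

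In coagulation, neither the gene of the initiator nor that of von Willebrand factor was called. F3, which encodes tissue factor, the trigger of clotting, stood at 35.8, 50 and 47.8 CPM in wild type fat and at 45.5, 37.6 and 64.2 CPM in knockout fat. The groups overlapped, and the 95% interval of the fold of CD44 KO over wild type was 0.737 to 1.65 (edgeR FDR 0.714). Vwf, the endothelial gene of the platelet-tethering von Willebrand factor, stood at 82.9, 58.7 and 53.1 CPM in wild type fat and at 52.2, 84.1 and 108 CPM in knockout fat. Its fold of CD44 KO over wild type had a 95% interval of 0.753 to 2.09 (edgeR FDR 0.485). CD44 KO replicate 1 was below the wild type range and the other knockout libraries above it, and the log2FC of 0.33 was 0.56 without that library and -0.32 with it as the only knockout library.

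F7 and F10, the genes of factors VII and X, lie side by side on the plus strand of chromosome 8, F7 from 13026034 to 13035809 and F10 from 13037308 to 13056676, with 1498 bases between them. F7 stood at 26.3, 101 and 47.1 CPM in wild type fat and at 27.1, 0.48 and 1.68 CPM in knockout fat. CD44 KO replicate 1 matched wild type replicate 1, while the other CD44 KO libraries had 8 and 26 counts against 446 to 1869 in wild type. F10 stood at 10.7, 31.4 and 19.5 CPM in wild type fat and at 10.7, 0.36 and 3.88 CPM in knockout fat. Their log2FC values were -2.57 (SE 1.35) and -2.04 (SE 1.00) with edgeR FDR of 0.236 and 0.212. Without CD44 KO replicate 1, F7 stood at -5.75 and was called (edgeR FDR 0.0229), and F10 stood at -3.28 and was not (edgeR FDR 0.0711). These are the same 2 libraries in which C3ar1, C5ar1 and the macrophage markers were lowest, and the part of macrophages in these values was not tested. Proz, the gene of protein Z, named after its values were seen, follows F10 on the chromosome and had a log2FC of -0.92 (edgeR FDR 0.333).

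F5 and F8, the genes of the cofactors V and VIII, were on the high side at low counts. F5 had 12, 17 and 9 counts in wild type fat and 13, 120 and 59 in knockout fat (log2FC 2.48, SE 0.81, edgeR FDR 0.11), and CD44 KO replicate 1 was inside the wild type range. With that library as the only knockout library the log2FC of F5 was 0.14. The other CD44 KO libraries held more liver transcripts, replicate 2 also epididymis transcripts, and their part in the F5 values was not tested. F8 had 49, 34 and 79 counts in wild type fat and 87, 106 and 79 in knockout fat (log2FC 0.91, edgeR FDR 0.15).

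**Figure D3:**
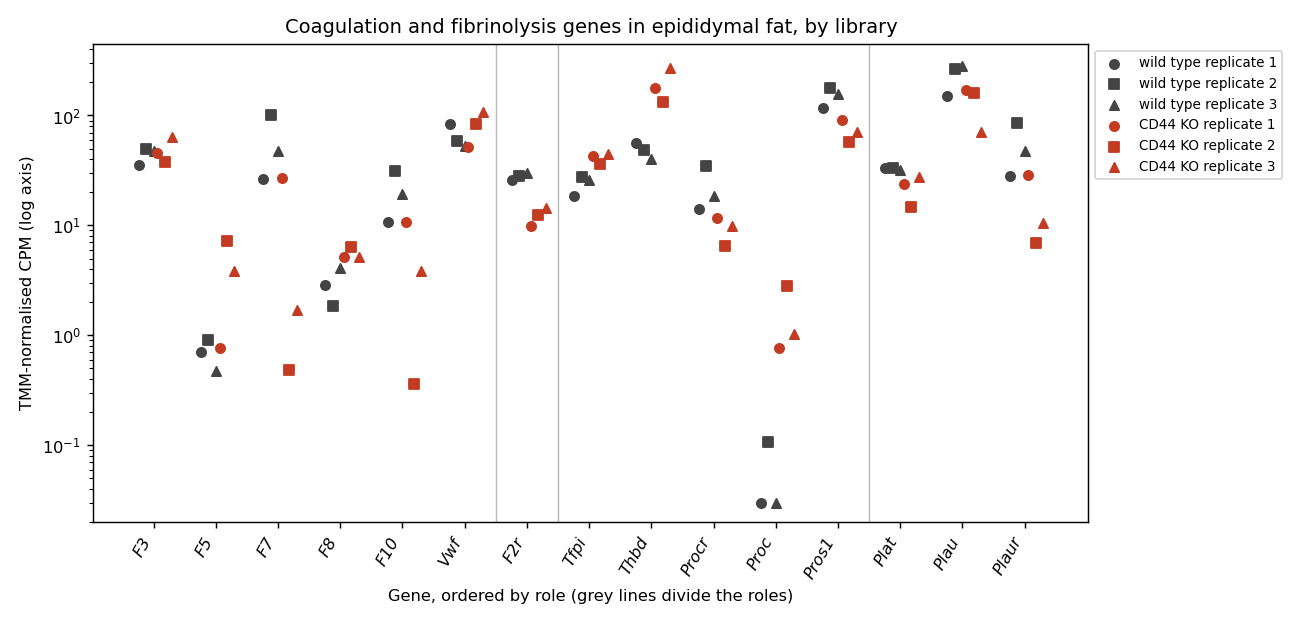
CPM (log y axis) of the 15 tested coagulation and fibrinolysis genes in each library, wild type in grey and CD44 KO in red, with 1 marker shape per replicate number. Libraries with 0 counts are drawn at 0.03 CPM and grey lines divide the roles. Thbd is higher and F2r lower in all 3 CD44 KO libraries, while F7 and F10 are low only in CD44 KO replicates 2 and 3.

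The thrombin receptor fell and thrombomodulin rose. F2r (chromosome 13, minus strand, 95601803 to 95618487) encodes PAR1, the receptor that thrombin activates by cutting it. It fell from 26.1, 27.9 and 30.1 CPM in wild type to 9.85, 12.3 and 14.5 CPM in knockout fat, with separate groups. The fibroblast and progenitor markers had separate sums in the same direction (6021 to 8373 CPM in wild type, 1156 to 3401 CPM in knockout fat), and their part in the F2r values was not tested. The decrease was 2.29-fold (95% interval 1.68 to 3.13) at a log2FC of -1.20 (SE 0.19, edgeR FDR 0.039). Thbd (chromosome 2, minus strand, 148404466 to 148408188) encodes thrombomodulin, which turns thrombin toward the activation of protein C. It rose from 56.0, 49.0 and 39.8 CPM in wild type to 178, 133 and 269 CPM in knockout fat, again with separate groups. The increase was 4.01-fold (95% interval 2.45 to 6.57), with a log2FC of 2.00 (SE 0.30, edgeR FDR 0.0353). Thbd was called in 2 of the 6 fits without 1 library and F2r in 1, with Thbd between 1.68 and 2.21 and F2r between -1.34 and -1.07. Endothelial and mesothelial cells both carry thrombomodulin. Endothelial markers summed to 1782, 832 and 1125 CPM in wild type fat and to 1125, 1708 and 2114 CPM in knockout fat, with 12 of 12 detected in each library. The 9 mesothelial markers summed to 14.1, 16.5 and 6.31 CPM in wild type fat and to 79.2, 266 and 48.0 CPM in knockout fat, with separate groups, and the part of either cell type in the Thbd values was not tested.

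All 5 anticoagulant genes had separate groups, 3 higher and 2 lower in knockout fat. Thbd alone was called by edgeR, while DESeq2 called the same 3 higher and 2 lower (9.62% and 9.38% of all its tested genes). Over all genes tested 37.8% had separate groups, 19.7% higher and 18.1% lower. Tfpi, the inhibitor of the tissue factor and factor VII complex, stood at 18.6, 27.8 and 26.1 CPM in wild type fat and at 43.1, 35.9 and 44.9 CPM in knockout fat (log2FC 0.77, SE 0.20, edgeR FDR 0.0761). Proc, the gene of protein C, had 0, 2 and 0 counts in wild type fat and 13, 47 and 16 in knockout fat. The fitted fold of Proc, over the spread between libraries, was 35.5 (95% interval 5.26 to 240, edgeR FDR 0.0638). The ratio of its summed scaled counts was 42.5 (95% counting interval 11.4 to 357). Its highest library, CD44 KO replicate 2, also held liver and epididymis transcripts, and their part in the Proc values was not tested. Procr, which encodes the endothelial protein C receptor, stood at 14.2, 35.0 and 18.6 CPM in wild type fat and at 11.7, 6.49 and 9.90 CPM in knockout fat (log2FC -1.27, edgeR FDR 0.103). Pros1 encodes protein S, a cofactor of protein C. It stood at 116, 179 and 155 CPM in wild type fat and at 90.3, 57.7 and 70.0 CPM in knockout fat (log2FC -1.05, SE 0.24, edgeR FDR 0.0665, DESeq2 adjusted p 0.00297).

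None of the 3 tested fibrinolysis genes was called by edgeR, and all 3 had negative log2FC values. DESeq2 called Plaur lower (adjusted p 0.0244). Plat, the gene of tissue plasminogen activator, stood at 33.4, 33.1 and 31.6 CPM in wild type fat and at 23.9, 14.8 and 27.8 CPM in knockout fat (log2FC -0.56, edgeR FDR 0.168). Plau, the gene of urokinase, had a log2FC of -0.80 (edgeR FDR 0.218), with 150.2, 266 and 283 CPM in wild type fat and 172, 159 and 70.8 CPM in knockout fat. Plaur, the urokinase receptor gene, stood at 28, 85.5 and 48.0 CPM in wild type fat and at 28.8, 6.91 and 10.6 CPM in knockout fat. CD44 KO replicate 1 was inside the wild type range for Plau and Plaur, and without it Plaur had a log2FC of -2.63 and was called (edgeR FDR 0.0321).

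Of the other coagulation and fibrinolysis genes, 40 were in the table and 19 tested, and 0 rose and 1 fell, against 1.74% and 0.882% of all genes tested. The gene that fell was Tfpi2, an inhibitor of plasmin and other matrix proteases, from 14.9, 9 and 14.7 CPM to 2.26, 1.32 and 1.10 CPM. Its decrease was 8.21-fold (95% interval 4.34 to 15.6), with a log2FC of -3.04 (SE 0.38, edgeR FDR 0.0267). Tfpi2 was called without wild type replicate 1 and without CD44 KO replicate 1, and not without any 1 of the other libraries. F13a1, the fibrin-crosslinking factor XIII subunit, had a log2FC of -0.62 (edgeR FDR 0.28).

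Plg and some liver-made genes outside the 39 had counts mainly in CD44 KO replicates 2 and 3. Plg, the gene of plasminogen, had 1, 0 and 2 counts in wild type fat and 1, 21 and 128 in knockout fat, a ratio of summed scaled counts of 55.9 (95% counting interval 18.8 to 274). The fibrinogen genes Fga, Fgb and Fgg together had 1, 0 and 2 counts in wild type fat and 0, 518 and 2165 in knockout fat. CD44 KO replicate 1 thus had no fibrinogen counts. Fga, Fgb, Fgg and the kininogen gene Kng1 were named after their values were seen. Kng1 had 0, 2 and 0 counts in wild type fat and 0, 31 and 273 in knockout fat. The summed hepatocyte markers were 1428 to 3074 CPM in wild type fat and 5732 to 9797 CPM in knockout fat, most of it from Cyp2e1 and Trf, which had 493 to 81725 counts in each library. In wild type 3 or 4 of the 10 hepatocyte markers were at 0 in each library, in CD44 KO replicate 1 2 were, and in CD44 KO replicates 2 and 3 none. The part of liver transcripts in the values of Plg was not tested.

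C4bp, the gene of C4b-binding protein, and Cpn1, a subunit of the carboxypeptidase that inactivates C3a and C5a, were high in CD44 KO replicate 2. C4bp had 1, 0 and 2 counts in wild type fat and 10, 3334 and 47 in knockout fat, and Cpn1 had 1, 3 and 0 against 7, 679 and 13. The epididymis marker Crisp1 had 12 to 28 counts in the other 5 libraries and 160218 in that library. C4bp and Cpn1 were named after their values were seen, and the part of epididymis tissue in them was not tested.

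**Figure D4:**
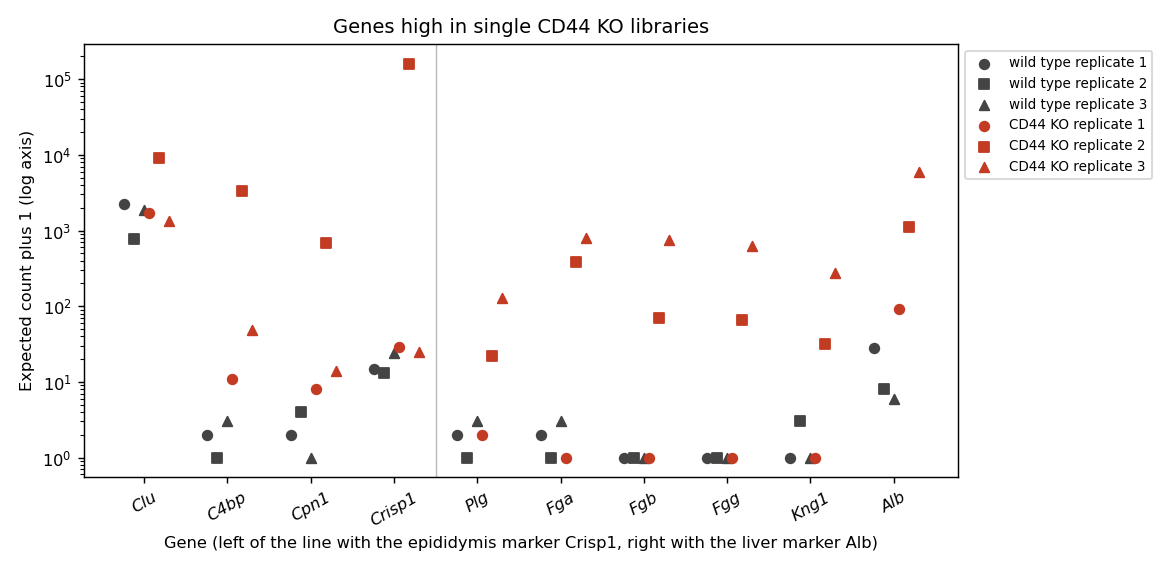
Expected counts plus 1 (log y axis) of genes that were high in single CD44 KO libraries, wild type in grey and CD44 KO in red, with 1 marker shape per replicate number. Clu, C4bp and Cpn1 peak in CD44 KO replicate 2 with Crisp1, and Plg, the fibrinogen genes and Kng1 peak in CD44 KO replicate 3 with Alb.

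Ratios within each library set 3 of these genes or groups against the markers of a cell type that makes them. C1q counts per macrophage marker count were 0.194, 0.159 and 0.246 in wild type fat and 0.140, 0.173 and 0.175 in knockout fat. The groups overlapped, and the difference of mean log2 ratios was -0.28 (exact permutation test, two-sided p 0.3, where 3 against 3 libraries cannot go below 0.1). This ratio and its overlap hold for the sum of the 14 macrophage markers, of which Lyz2 and Cd74 had the highest means (2843 and 1496 CPM in wild type). Weighted equally, by mean log2 count, the 14 markers gave a C1q ratio lower in each knockout library than in any wild type library. Single markers differed. Without CD44 KO replicate 1 their log2FC ran from -5.33 (Cd68) to -0.01 (Mertk), with a median of -3.09, against -3.52 for C1qb. Vwf per endothelial marker count was 0.0465, 0.0705 and 0.0472 in wild type fat and 0.0464, 0.0492 and 0.051 in knockout fat (difference -0.14, exact permutation test, two-sided p 0.8). Cfd per mature adipocyte marker count was 0.0207, 0.00591 and 0.0103 in wild type fat and 0.207, 0.195 and 0.323 in knockout fat. The groups did not overlap, and the difference of mean log2 ratios was 4.45 (exact permutation test, two-sided p 0.1, the smallest it can give). The adipocyte markers summed to 35714, 17670 and 24311 CPM in wild type and to 38674, 34810 and 45994 CPM in knockout fat, a narrower range than that of Cfd. Of these 12 markers 11 had a positive log2FC (median 1.11), 6 were separate and higher and 1 separate and lower (19.7% and 18.1% of all genes tested). The edgeR test called 0 of them, and DESeq2 called 6 higher (9.62% of all its tested genes).

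**Figure D5:**
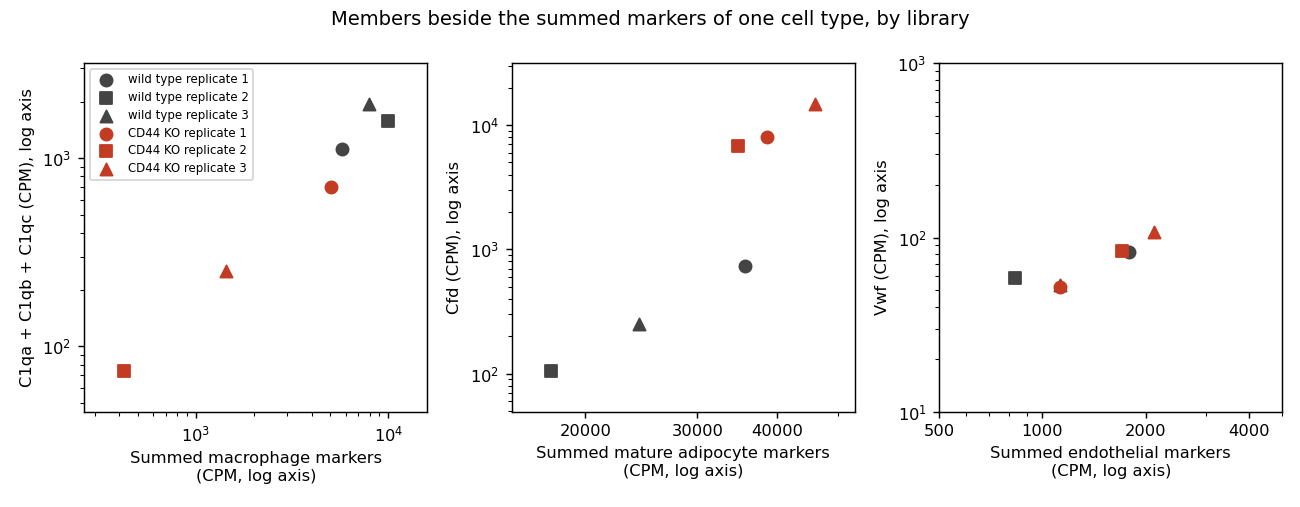
Summed CPM of the C1q genes, CPM of Cfd and CPM of Vwf (log y axes) against the summed CPM of macrophage, mature adipocyte and endothelial markers (log x axes), with 1 point per library. C1q lies along the summed macrophage markers in both genotypes, though single markers of that sum differ. With the markers weighted equally, C1q per marker was lower in each CD44 KO library than in any wild type library. CD44 KO replicates 1 and 2 lie above wild type replicate 1 in Cfd at nearly the same adipocyte marker level. CD44 KO replicate 3 lies above it in both.

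Levels can be compared between genes on the authors' FPKM scale, which corrects for transcript length. In wild type C1qb was first of the 37 at 615 ± 172 FPKM (SD, n = 3), followed by C3 at 435 ± 136, Cfd at 415 ± 379, C1qc at 413 ± 118 and C1qa at 388 ± 98.9 FPKM. C1qb was above C1qc and C1qa in each wild type library, while the ranges of C3, Cfd, C1qc and C1qa over the wild type libraries overlapped. Plau, ranked 9, was the highest of the coagulation and fibrinolysis genes at 101 ± 31.3 FPKM. In CD44 KO Cfd was first at 10919 ± 4977 FPKM, above C3 at 195 ± 91.3 FPKM. Clu was ranked 3 through CD44 KO replicate 2, the library with epididymis transcripts (63.9, 292 and 52.6 FPKM), and C1qb was ranked 4 at 131 ± 140 FPKM. C5ar1 moved from rank 10 to rank 21, with 48.8, 1.57 and 4.93 FPKM in knockout fat, so its mean stood for no single library.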

How the data were processed

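Messenger RNA of epididymal fat was sequenced in 6 libraries, grouped by the genotype in their labels. The authors deposited unscaled expected counts (estimated counts per gene, 7.57% to 8.3% of them not whole) and FPKM, which they scaled for transcript length and library size, per the file headers. A second table the authors deposited holds the same counts rounded, with their log2 fold changes, p-values and FDR. StringTie 1.3.1, HISAT2, DESeq2 and RSEM appear in the submitters' processing notes with no role, and neither build nor annotation is stated in those notes or the labels.

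After rounding, these counts were compared between genotypes in edgeR 4.0.16 (filterByExpr, TMM, robust quasi-likelihood F-test) under R 4.3.3, with Benjamini-Hochberg adjustment over 13829 genes. SE is the absolute log2 fold change over the square root of F, and 95% intervals use the moderated degrees of freedom. Counting intervals and the floor of 3 counts cover counting error only, since amplified reads with no molecular identifier do not count separate molecules. The scripts were tested on simulated data. Positions are those of GENCODE M21 (GRCm38), matched by Ensembl identifier.

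The members, the lists of other pathway genes and the marker lists were chosen with earlier results of these data known. Members that were called, or had separate groups, at least a 2-fold difference and a mean of at least 1 CPM, are given by library. Of the other pathway genes, those called and Hc, F13a1, Itgam, Itgb2 and Cd93 are named, apart from some not reported here, and further ones are marked as chosen after their values were seen. Alternatives were other scaling, other filters, DESeq2 1.42.0, a replicate block and each library left out. A fit without CD44 KO replicates 2 and 3 together was added after seeing the data.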

Additional observations from a re-analysis of the deposited data

How the results depend on the processing

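Counts of called genes depended more on the tool and on single libraries than on scaling or filters. DESeq2 called 4 complement genes higher and 8 lower, 5 coagulation genes higher and 4 lower, 2 and 6 of the other complement genes and 5 and 4 of the other coagulation genes, among 1476 higher and 1439 lower of all genes. Complement genes called higher numbered 1 with total counts only and 1 with no filter on low counts, and 1 was called lower with DESeq2 size factors. With no filter 145 of all genes were called higher. With each library left out in turn, complement calls ran from 0 to 3 higher and 0 to 8 lower, coagulation calls from 0 to 4 and 0 to 4, the other complement genes from 0 to 3 and 0 to 10 and the other coagulation genes from 0 to 4 and 0 to 2. Over all genes these fits gave 0 to 1007 higher and 0 to 1363 lower, with 0 and 0 without wild type replicate 3, where edgeR gave an unadjusted p under 0.05 for 1275 higher and 1111 lower. With CD44 KO replicate 1 as the only knockout library, a fit added after seeing the data in which that library is assumed to vary like the wild type, edgeR called 0 genes of the 4 lists in either direction (unadjusted p under 0.05 for 3 complement and 3 coagulation genes higher and 3 and 1 lower) and 10 higher and 2 lower of all genes. Vtn had a log2 fold change of -0.37 and Vwf of -0.32 in that fit. With each library left out, Vtn ran from -0.56 to 0.40 (below 0 without wild type replicate 2, at -0.08, and without CD44 KO replicate 3) and F3 from -0.11 (without CD44 KO replicate 3) to 0.30. Vwf per endothelial marker count had a difference of -0.24 to 0.059 with each library left out. The median log2 fold change of all genes was 0.11 with no filter and 0.10 with DESeq2, against 0.03. The cause of these differences was not tested.

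With the replicate number as a block edgeR called 0 of all genes in either direction (unadjusted p under 0.05 for 1585 higher and 1220 lower), so 0 in each of the 4 lists, and Vtn was at -0.058. Libraries with the same number did not deviate together (correlations of -0.45, -0.15 and -0.09), and no library correlated best with its own number. So few correlations cannot exclude a batch shared by number, and the labels give the number no meaning. The block fit was kept as an alternative only.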
